A study of Mus musculus with 9 samples.

Results

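The genes described here are 42 immediate early and heat shock genes, 32 of the immediate early class and 10 of the heat shock class, among the 17232 genes listed for endothelial cells (ECs) of mouse bone marrow. They were taken by symbol from a written list of transcription factors, signal inhibitors, RNA decay factors and chaperones. The rule used no measured value, but the list was chosen with earlier results of these data known. Shares of the 42 set beside those of all genes are therefore a description. All 42 were listed and passed the filter on low values. The cells came from *Nestin*-GFP transgenic mice, in which regulatory sequence of *Nestin* drives GFP, and all groups carried that transgene. *Nestin*-GFPbright arterial ECs (bright AECs) and *Nestin*-GFPdim arterial ECs (dim AECs) were gated as live single cells that were CD45-, Ter119-, CD31+, PDPN- and Sca-1bright, and sinusoidal ECs (SECs) as live single CD45- Ter119- CD31+ cells that were PDPN+ and Sca-1dim. Each group had 3 libraries, numbered 1, 3 and 4 in the titles. Before the sort, marrow was digested with collagenase IV and dispase at body temperature, for a time that the study's methods state for ECs in general. The labels do not say what a shared number stands for. They also do not say how long the cells of each library were handled, or how many animals each library holds.

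Immediate early genes are transcribed within minutes of a stimulus without new protein synthesis, largely through serum response factor at CArG boxes and through CREB and ATF proteins at cyclic AMP response elements (CREs). Their products include the AP-1, EGR and NR4A transcription factors and the phosphatases and RNA decay factors that shut the signal off again. Heat shock genes are driven by HSF1, which binds inverted repeats of GAA when unfolded protein accumulates, and they encode chaperones. Both classes are known to respond to tissue dissociation and warmth as well as to signals inside the animal.

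Values are RPKM, that is, reads scaled to the length of the gene model and to the depth of the library. The 9 libraries held between 13896190 (dim AEC number 1) and 73475550 (SEC number 3) reads in the genes listed, so that 1 read per kilobase stood for 0.0143 to 0.071 RPKM. Differences are given on the log2(RPKM + 1) scale from a linear model fitted to all 9 libraries with limma over 16364 genes, and a gene counts as called where its p, adjusted by Benjamini and Hochberg's method, fell below 0.05. By marker lists, 6 of 9 arterial markers were higher and 9 of 10 sinusoidal markers lower in bright AECs than in SECs. In dim AECs 6 of 9 arterial markers were also higher, but 2 of 10 sinusoidal markers were lower. The 10 sinusoidal markers summed to 63.5 to 106 RPKM in bright AECs, to 143 (number 1), 1127 (number 3) and 376 RPKM (number 4) in dim AECs, and to 3516 to 6130 RPKM in SECs. The study's methods count n in mice, but the labels tie no library to an animal, so the p values measure only the spread between these samples. In bulk RNA, fewer cells of a type and less RNA per cell cannot be told apart.

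More of these genes were called between replicate numbers than between cell types. The cell type fit did not hold the number, so the spread between numbers stayed in its error. With the number as a block, 6 of the 42 genes were higher in AECs than in SECs (3.56% of all genes). In the libraries numbered 1, set against those numbered 3 and 4 with the group as a covariate, 30 of the 42 genes were lower (71.4%) and 0 were higher. Among all genes tested, 5.10% were lower and 10.8% were higher in the same comparison. At an unadjusted p under 0.05, 36 of the 42 genes passed (85.7%, background 31.8%), and voom on recovered reads gave 29 lower and 0 higher. The median difference of the 42 genes was -1.85, that of all genes was -0.02, and the same median of -1.85 held for the 32 immediate early genes, against -1.75 for the 10 heat shock genes. All 3 libraries numbered 1 lay below all 6 others for 32 of the 42 genes (76.2%), where 5.82% of all genes did so, and they lay above all 6 others for 0, where 11.8% of all genes did so. Within each of the 3 groups, number 1 was the lowest library for 34 of the genes (81.0%, background 14.8%). In an exact two-sided permutation test over the 27 choices of 1 library a group, 31 of the 42 genes (73.8%) were lower at 0.037, the smallest p this design allows, as were 8.56% of all genes. The libraries numbered 1 deviated together from their group means (correlations of 0.708 to 0.784). The p values of this comparison treat libraries as independent and measure no spread between numbers.

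**Figure D1:**
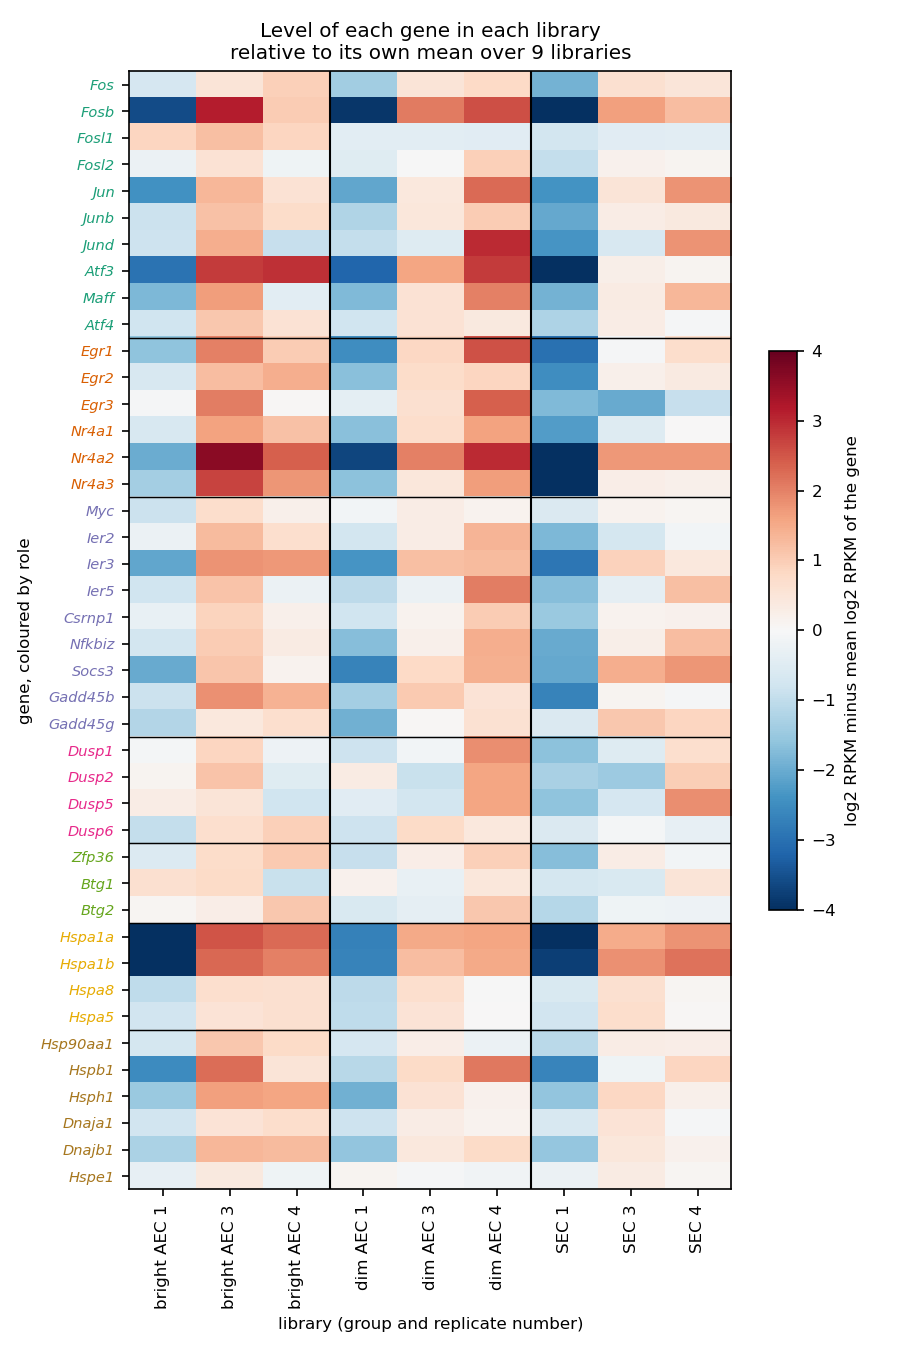
Log2 RPKM of each of the 42 genes (rows, by role) in each of the 9 libraries (columns: bright AECs, dim AECs and SECs, numbers 1, 3 and 4), minus the gene's own mean over the libraries. The number 1 column is the lowest of its group for 34 of the genes. The colour scale ends at 4 log2 units.

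The 42 genes took 1.02%, 0.885% and 0.716% of the reads of bright AEC, dim AEC and SEC number 1, against 2.59% to 4.76% of the reads of the 6 other libraries. The 32 immediate early genes summed to 4290 (bright), 2922 (dim) and 1955 RPKM (SEC) in number 1, and to 8445 to 16280 RPKM in numbers 3 and 4. The 10 heat shock genes summed to 552, 574 and 589 RPKM in number 1 of the same groups, and to 2272 to 3579 RPKM in numbers 3 and 4. Neither sum overlapped between number 1 and the other numbers.

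Other transcripts moved with the number as well. The 14 neutrophil markers, among them granule proteins such as *Ngp*, *Camp* and *Ltf*, summed to 123000 to 300700 RPKM in number 1 and to 144 to 56920 RPKM in numbers 3 and 4, or 9.14% to 18.0% and 0.00728% to 4.40% of the reads. Of the 14, 4 passed the test as higher (median difference 4.29), and *Elane* alone had no read in a library, SEC number 3. Markers of B and plasma cells were higher for 11 of 12 genes (sums of 3678 to 18210 RPKM in number 1 and 57.2 to 3050 RPKM in numbers 3 and 4), those of T and NK cells for 5 of 9 (126 to 219 and 0.361 to 114 RPKM) and those of monocytes and macrophages for 2 of 11 (7132 to 16790 and 404 to 5170 RPKM). In number 1, *Lyz2* made up most of the monocyte and macrophage sum (15930, 9540 and 6573 RPKM in bright AECs, dim AECs and SECs). In SEC number 3 most of that sum was *Mrc1* (290 RPKM), which is also on the sinusoidal list. Red cell markers overlapped (1 of 10 higher, 4345 to 9590 and 84.6 to 34130 RPKM, highest in dim AEC number 4), and 0 of 9 megakaryocyte markers were called, whose sum was 1723 RPKM in bright AEC number 1 and 9.68 to 62.6 RPKM elsewhere. The 10 pan-endothelial markers, such as *Pecam1* and *Cdh5*, summed to 504 to 1430 RPKM in number 1 and to 1685 to 3019 RPKM in numbers 3 and 4, and 9 of 10 were lower (median -1.28). The neutrophil sum also differed widely among the libraries in which the 42 genes were high: it was 56920 RPKM in bright AEC number 4 and 53220 RPKM in SEC number 4, but 144 RPKM in SEC number 3. What part blood cell RNA had in the low levels of number 1 was not tested.

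Set against the pan-endothelial sum of the same library, the immediate early sum no longer separated the numbers. The ratio was 8.52 in number 1 of bright AECs, against 6.79 and 6.73 in numbers 3 and 4. It was 2.70 in number 1 of dim AECs, against 3.1 and 6.89, and 1.37 in number 1 of SECs, against 3.31 and 5.30. The heat shock ratio also overlapped between the numbers across groups, but within each group number 1 stayed lowest, with ratios of 1.10, 0.531 and 0.412 in number 1 of bright AECs, dim AECs and SECs, against 1.69 and 1.51, 0.753 and 0.985, and 0.955 and 1.39 in the same groups. In a fit added after the data were seen, with each library shifted to the same mean level of the 10 pan-endothelial markers, 16 of the 42 genes were still lower in number 1, while 0.379% of all genes were lower. On that scale the median of all genes stood at 1.23, that of the 42 genes at -0.59, and 77.8% of all genes but 3 of the 42 (*Fosl1*, *Btg1* and *Hspe1*) were higher. A shift to one median over all genes gave 33 of the 42 as lower, with 9.07% of all genes lower and 9.39% higher.

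**Figure D2:**
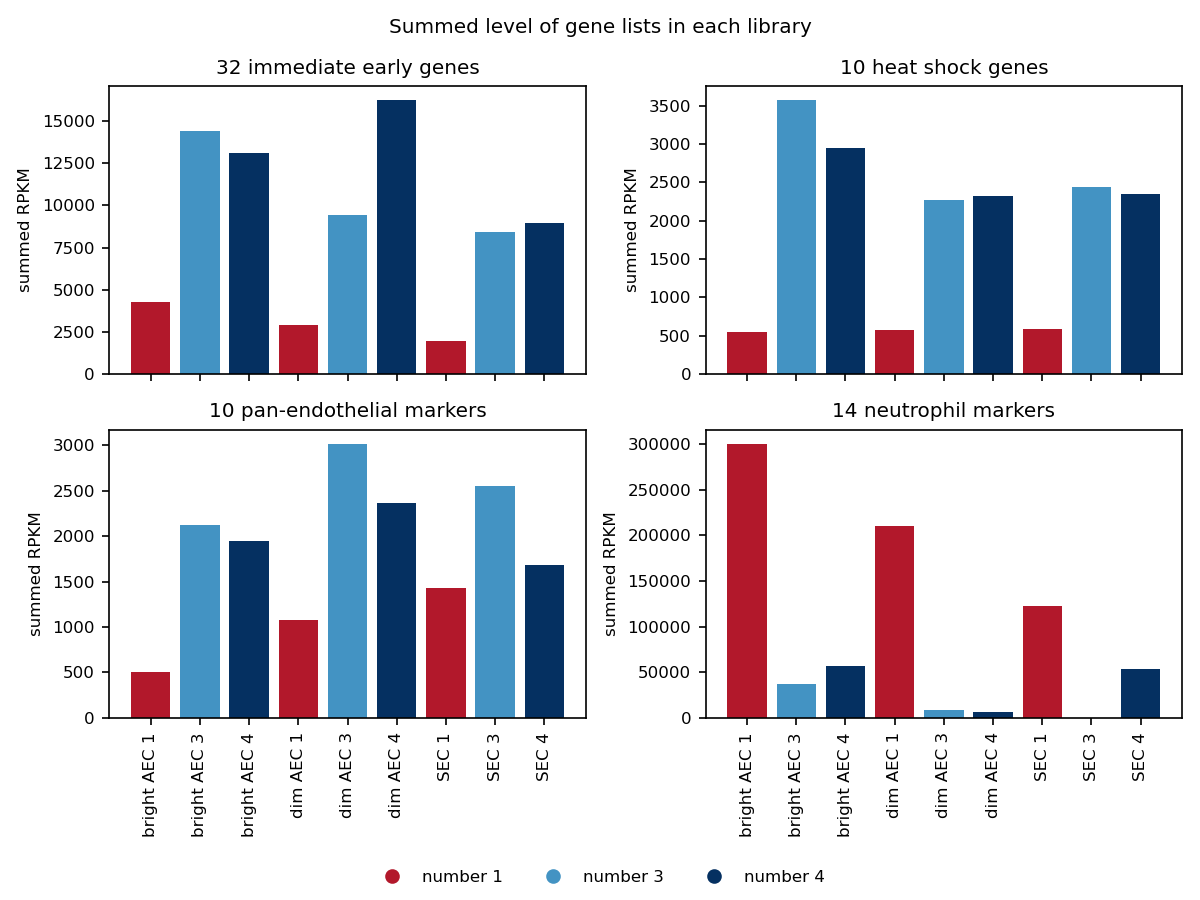
Summed RPKM of the 32 immediate early genes, the 10 heat shock genes, 10 pan-endothelial markers and 14 neutrophil markers in each library, coloured by number. The first pair of sums is lowest in number 1 of every group, the pan-endothelial sum is 504 to 1430 RPKM there, and the neutrophil sum is highest there within each group.

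The count of 30 rested in part on single libraries. Without bright AEC number 1, 19 of the genes were lower (0.473% of all genes), and without dim AEC number 1, 18 were lower (0.465% of all genes). Without any other library the count was 27 to 35 (2.55% to 6.30% of all genes), and no member was called higher in number 1 in any of these fits.

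Among AP-1 and related bZIP factors, 7 of 10 were lower in number 1 (median -2.0). *Fosb*, a Fos family partner of Jun proteins, had 4.41, 3.58 and 2.85 RPKM in the libraries numbered 1 of bright AECs, dim AECs and SECs, against 471 and 106 RPKM in bright AECs, 222 and 313 RPKM in dim AECs and 164 and 125 RPKM in SECs numbered 3 and 4. *Atf3*, a bZIP factor induced by many stresses, had 15.8 (bright), 13.4 (dim) and 6.21 RPKM (SEC) in number 1, against 850.1 and 917 (bright), 361 and 848 (dim) and 144 and 130.5 RPKM (SEC) in numbers 3 and 4. Both genes were low in every library numbered 1 and did not overlap with the others. *Fosb* averaged 3.61 ± 0.782 RPKM in the libraries numbered 1 and 234 ± 138 RPKM in those numbered 3 and 4 (SD, n = 3 and 6). *Atf3* averaged 11.8 ± 4.98 RPKM in the libraries numbered 1 and 542 ± 371 RPKM in those numbered 3 and 4 (SD, n = 3 and 6). The differences in limma were -5.49 ± 0.38 for *Fosb* (SE, adjusted p = 0.00118) and -5.08 ± 0.32 for *Atf3* (SE, adjusted p = 0.001), and both were kept in all 19 other settings run. *Jun* itself, the founding AP-1 subunit, had 27.1 (bright), 34.3 (dim) and 27.7 RPKM (SEC) in number 1, against 364 and 219 (bright), 195 and 694 (dim) and 208 and 505 RPKM (SEC) in numbers 3 and 4. Its libraries numbered 1 lay between 27.1 and 34.3 RPKM, whereas the others spread from 195 to 694 RPKM (-3.41 ± 0.38, limma adjusted p = 0.00424).

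The most abundant AP-1 genes had smaller differences. *Fos* had 1075 (bright), 649.9 (dim) and 461 RPKM (SEC) in number 1, against 2428 and 3313 (bright), 2433 and 2952 (dim) and 2667 and 2358 RPKM (SEC) in numbers 3 and 4. *Junb*, a Jun protein that often opposes c-Jun, had 448 (bright), 353 (dim) and 196 RPKM (SEC) in number 1, against 1797 and 1331 (bright), 1111 and 1627 (dim) and 999.9 and 1063 RPKM (SEC) in numbers 3 and 4. These 2 genes had the highest mean RPKM of the AP-1 group, and neither overlapped between number 1 and the other numbers (*Fos* -1.96 ± 0.30, limma adjusted p = 0.00812, and *Junb* -2.03 ± 0.26, limma adjusted p = 0.00526). *Fosb* stood at 0.410%, 0.551% and 0.618% of the *Fos* RPKM in number 1 of bright AECs, dim AECs and SECs and at 3.21% to 19.4% in numbers 3 and 4, so the pair changed unequally within the libraries. *Atf4*, the effector of the integrated stress response, had 85.6 (bright), 85.6 (dim) and 63.4 RPKM (SEC) in number 1, against 316 and 221 (bright), 223 and 197 (dim) and 183 and 144 RPKM (SEC) in numbers 3 and 4. *Maff*, a small Maf protein without a transactivation domain, had 1.14 (bright), 1.18 (dim) and 1.07 RPKM (SEC) in number 1, against 12.9 and 2.97 (bright), 5.96 and 16.2 (dim) and 4.99 and 10.1 RPKM (SEC) in numbers 3 and 4. Both were lower in number 1 (-1.41 ± 0.16 and -2.03 ± 0.48, limma adjusted p = 0.00432 and 0.0292), with no overlap. *Maff* was near 1 RPKM in each library numbered 1, behind which stood 35 to 111 reads.

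The other members of the group were not called. *Fosl2*, another Fos family member (15.5 to 58.0 RPKM, -0.80, limma adjusted p = 0.0886), and *Jund* (-1.92, limma adjusted p = 0.156) overlapped between the numbers. *Fosl1*, which encodes the Fos family protein Fra-1, was not called either: its difference was -0.14 with a 95% interval of -0.52 to 0.23, and its values are given with the cell types below.

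**Figure D3:**
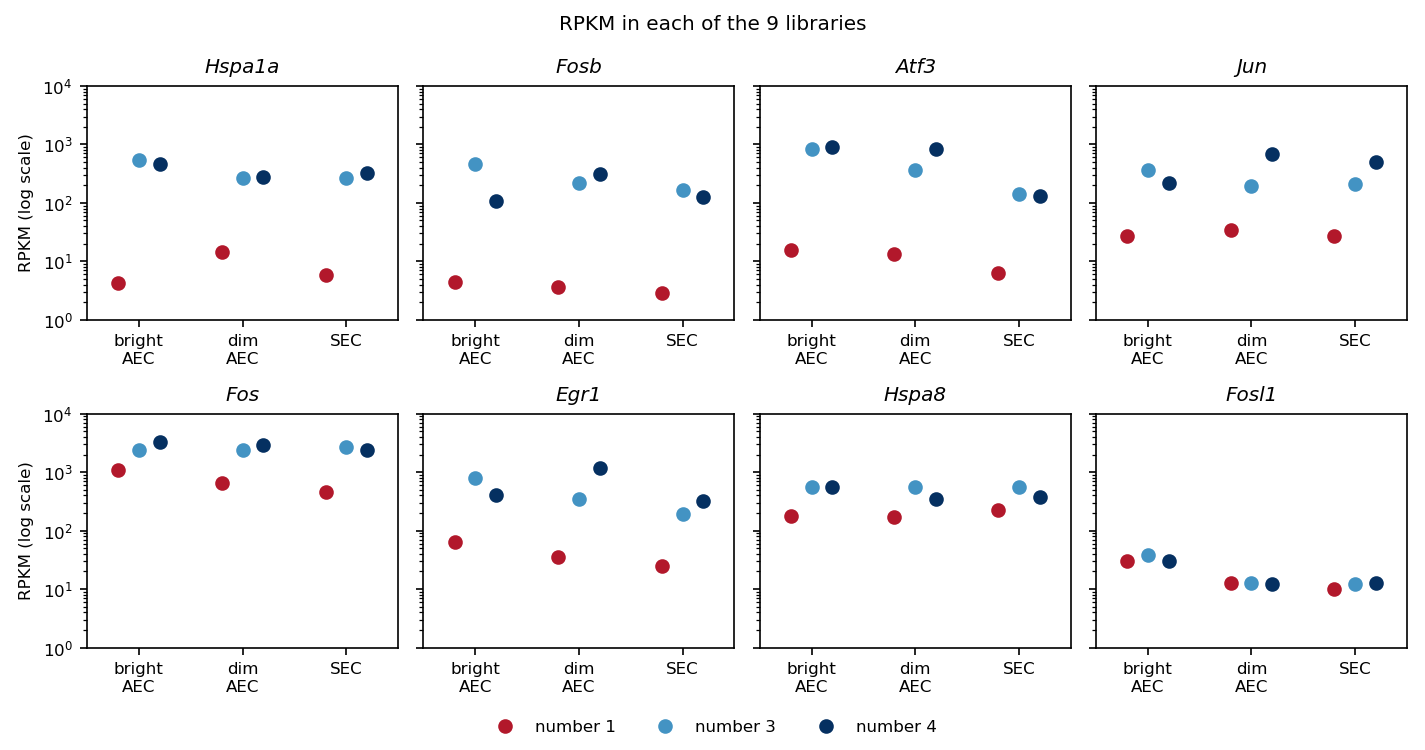
RPKM (log axis) of 8 of the genes in each library, by group (bright AECs, dim AECs, SECs) and coloured by number. *Hspa1a*, *Fosb*, *Atf3*, *Jun*, *Fos*, *Egr1* and *Hspa8* were lowest in number 1 of every group, and *Fosl1* was at 30.2 to 38.5 RPKM in bright AECs and at 10.2 to 12.6 RPKM in the other groups.

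Promoter sequence was looked up because members that move together may share a motif. RefSeq windows (GRCm38.p6) were found for 34 of the 42 genes, and the 250 bases before each start were searched on both strands. *Fosl1*, *Egr1*, *Egr3*, *Myc*, *Ier2*, *Nfkbiz*, *Hspa8* and *Hsp90aa1* had no window and were not searched, nor were sites further upstream in any gene. TGACG, the core of a CRE, stood in 15 of 26 immediate early genes with a window (57.7%), in 4 of 8 heat shock genes (50%) and in 19.8% of all genes with a window. The full CRE TGACGTCA stood in 3 of 26 (11.5%), namely *Btg2*, *Maff* and *Dusp1*, against 1.77% of all. TGACGTCA contains TGACG. A CArG box stood in 3 of 26 (11.5%), *Egr2*, *Zfp36* and *Dusp5*, against 1.62% of all, and the AP-1 motif TGANTCA in 1 of 26 (3.85%), *Csrnp1*, against 7.82% of all. The last 150 bases before the start are shown for the largest changes of the AP-1 group and for genes with a full CRE or a CArG box. Capitals mark TGACG on either strand in *Fosb* and *Atf3*, TGACGTCA in *Maff*, and the CArG boxes in *Zfp36* and *Dusp5*.
*Fosb*, chr7:19310046-19310195, minus strand: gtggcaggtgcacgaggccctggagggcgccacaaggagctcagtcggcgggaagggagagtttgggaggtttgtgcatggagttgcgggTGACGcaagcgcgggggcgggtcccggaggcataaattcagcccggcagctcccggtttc
*Atf3*, chr1:191183334-191183483, minus strand: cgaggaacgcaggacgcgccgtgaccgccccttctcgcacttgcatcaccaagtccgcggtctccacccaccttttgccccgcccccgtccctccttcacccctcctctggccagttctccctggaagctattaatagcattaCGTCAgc
*Maff*, chr15:79347370-79347519, plus strand: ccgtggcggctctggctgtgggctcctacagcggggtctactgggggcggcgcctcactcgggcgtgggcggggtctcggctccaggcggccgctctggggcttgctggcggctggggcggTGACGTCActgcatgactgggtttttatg
*Zfp36*, chr7:28379229-28379378, minus strand: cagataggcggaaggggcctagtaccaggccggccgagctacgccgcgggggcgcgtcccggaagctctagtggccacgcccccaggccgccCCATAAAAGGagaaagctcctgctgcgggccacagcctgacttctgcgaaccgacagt
*Dusp5*, chr19:53528995-53529144, plus strand: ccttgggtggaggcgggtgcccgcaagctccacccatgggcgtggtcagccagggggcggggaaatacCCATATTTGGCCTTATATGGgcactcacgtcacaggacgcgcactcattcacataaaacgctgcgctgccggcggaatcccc
A match is a description of these letters and not a measured site. *Dusp5*, with a pair of adjoining CArG boxes, was not called between the numbers, whereas *Zfp36*, with 1 box, was.

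All but *Egr3* of the 6 EGR and NR4A factors were lower in number 1 (median -2.23). The EGR proteins are zinc finger factors and the NR4A proteins orphan nuclear receptors, and both are induced early by growth factors and stress. *Egr1* had 64.9, 35.4 and 24.7 RPKM in the libraries numbered 1 of bright AECs, dim AECs and SECs, against 789 and 402 RPKM in bright AECs, 350.4 and 1165 RPKM in dim AECs and 189.8 and 324 RPKM in SECs numbered 3 and 4. *Nr4a1*, which encodes Nur77, had 218 (bright), 107 (dim) and 71.9 RPKM (SEC) in number 1, against 1029 and 765 (bright), 548 and 1029 (dim) and 237 and 340.2 RPKM (SEC) in numbers 3 and 4. *Nr4a2*, which encodes Nurr1, had 2.35 (bright), 0.736 (dim) and 0.0205 RPKM (SEC) in number 1, against 114 and 48.9 (bright), 37.9 and 74.3 (dim) and 30.9 and 31.1 RPKM (SEC) in numbers 3 and 4. Every library numbered 1 was below every other for all 3 genes, and SEC number 1 held 3 reads of *Nr4a2*, so no fold is given against it. The differences were -3.50 ± 0.42 for *Egr1*, -2.26 ± 0.28 for *Nr4a1* and -4.81 ± 0.32 for *Nr4a2* (SE; limma adjusted p = 0.00479, 0.00508 and 0.00118). *Egr2* had 11.3 (bright), 5.54 (dim) and 3.18 RPKM (SEC) in number 1, against 41.8 and 48.2 (bright), 29.5 and 32 (dim) and 20.2 and 22.6 RPKM (SEC) in numbers 3 and 4. *Nr4a3* had 0.707 (bright), 0.582 (dim) and 0.112 RPKM (SEC) in number 1, against 11.8 and 6.23 (bright), 2.48 and 5.84 (dim) and 2.19 and 2.11 RPKM (SEC) in numbers 3 and 4. These less abundant relatives showed the same order without overlap (-2.20 ± 0.17 and -1.87 ± 0.34, limma adjusted p = 0.00133 and 0.0135).

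Among the other induced nuclear and adaptor proteins, 7 of 9 were lower in number 1 (median -1.83). *Ier3*, a regulator of cell survival, had 76.6, 63.0 and 44.1 RPKM in the libraries numbered 1 of bright AECs, dim AECs and SECs, against 1136 and 1080 RPKM in bright AECs, 749 and 788 RPKM in dim AECs and 624 and 439 RPKM in SECs numbered 3 and 4. *Socs3*, the inhibitor of cytokine signalling through JAK and STAT proteins, had 23.2 (bright), 14.7 (dim) and 22.7 RPKM (SEC) in number 1, against 201 and 103 (bright), 164 and 252 (dim) and 253 and 316 RPKM (SEC) in numbers 3 and 4. Both separated the numbers by wide margins, *Ier3* at 61.2 ± 16.4 RPKM in the libraries numbered 1 and 803 ± 267 RPKM in those numbered 3 and 4 (SD, n = 3 and 6), with differences of -3.65 ± 0.19 and -3.29 ± 0.32 (SE; limma adjusted p = 0.000553 and 0.00299). *Gadd45b*, a stress sensor upstream of p38, had 52.1 (bright), 36.5 (dim) and 14.7 RPKM (SEC) in number 1, against 333 and 249 (bright), 196 and 137 (dim) and 103 and 90.3 RPKM (SEC) in numbers 3 and 4. Its relative *Gadd45g* had 68.2 (bright), 40.2 (dim) and 102 RPKM (SEC) in number 1, against 205 and 243 (bright), 158 and 235 (dim) and 327 and 278 RPKM (SEC) in numbers 3 and 4. In both, the SEC library numbered 1 was below the other SEC libraries, but the order of the cell types was opposite, as described below (-2.40 ± 0.16 and -1.83 ± 0.21, limma adjusted p = 0.00118 and 0.00432).

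*Nfkbiz*, a nuclear partner of NF-κB, had 24.8 (bright), 12.5 (dim) and 10.2 RPKM (SEC) in number 1, against 82.2 and 51.4 (bright), 46.8 and 112 (dim) and 48.4 and 96.6 RPKM (SEC) in numbers 3 and 4. *Ier2*, a small nuclear protein, had 333 (bright), 238 (dim) and 113 RPKM (SEC) in number 1, against 945 and 620.5 (bright), 479 and 1011 (dim) and 240.3 and 361 RPKM (SEC) in numbers 3 and 4. *Ier2* overlapped between the numbers, since bright AEC number 1 was above SEC number 3, but number 1 was the lowest library in each group. *Csrnp1*, a nuclear protein rich in cysteine and serine whose model overlaps *Cx3cr1* on the same strand by 6085 bases, had 63.9 (bright), 45.2 (dim) and 28.0 RPKM (SEC) in number 1, against 146 and 89.3 (bright), 85.7 and 159.8 (dim) and 86.5 and 88.5 RPKM (SEC) in numbers 3 and 4. The differences of *Nfkbiz*, *Ier2* and *Csrnp1* were -2.15 ± 0.36, -1.37 ± 0.29 and -1.26 ± 0.27 (SE; limma adjusted p = 0.0108, 0.0198 and 0.0226). *Myc*, the growth-promoting transcription factor (18.1 to 54.1 RPKM, -0.74, limma adjusted p = 0.0527), and *Ier5* (-1.70, limma adjusted p = 0.0635) were not called.

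Of the role groups, the dual-specificity phosphatases and the RNA decay and antiproliferative genes had the smallest median differences. Of 4 dual-specificity phosphatases, which remove phosphate from MAP kinases, 1 was lower in number 1 (median -0.96), and of 3 RNA decay and antiproliferative genes also 1 (median -0.84). *Dusp6*, a cytoplasmic phosphatase of ERK, had 56.3, 61.6 and 74.0 RPKM in the libraries numbered 1 of bright AECs, dim AECs and SECs, against 175 and 211 RPKM in bright AECs, 186 and 147 RPKM in dim AECs and 103 and 87.1 RPKM in SECs numbered 3 and 4. Its groups did not overlap, and it was lower in number 1 (-1.17 ± 0.27, limma adjusted p = 0.0281), although it stood at 0.09 after the shift to one pan-endothelial level, where the median of all genes was 1.23. *Dusp1*, a nuclear phosphatase and by RPKM the most abundant of the 4, had 408 (bright), 246 (dim) and 138 RPKM (SEC) in number 1, against 786 and 375 (bright), 404 and 1569 (dim) and 304 and 696 RPKM (SEC) in numbers 3 and 4. Bright AEC number 1 lay above bright AEC number 4 for *Dusp1*, and the difference was not called (-1.28 ± 0.49, limma adjusted p = 0.123). *Zfp36*, which encodes tristetraprolin and marks AU-rich mRNA for decay, had 493 (bright), 378 (dim) and 222 RPKM (SEC) in number 1, against 1206 and 1479 (bright), 859.5 and 1385 (dim) and 890.1 and 672 RPKM (SEC) in numbers 3 and 4. Its libraries numbered 1 were below all others (-1.59 ± 0.25, limma adjusted p = 0.00858). *Btg2*, an antiproliferative protein that recruits deadenylases, had 538 (bright), 336 (dim) and 231 RPKM (SEC) in number 1, against 618 and 1072 (bright), 399 and 1071 (dim) and 459.5 and 447 RPKM (SEC) in numbers 3 and 4. The numbers overlapped and it was not called (-0.84 ± 0.27, limma adjusted p = 0.0736). *Dusp2* and *Dusp5*, both nuclear phosphatases, ranged from 1.05 to 8.65 RPKM and from 2.10 to 23.1 RPKM, and *Btg1*, an antiproliferative relative of *Btg2*, from 30.4 to 95.9 RPKM. Their differences were -0.36, -0.75 and 0.04, with 95% intervals that included 0.

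Of the Hsp70 family, 4 of 4 genes were lower in number 1 (median -3.35). The inducible pair, *Hspa1a* and *Hspa1b*, showed the widest split among the chaperones, and the median lay between them and *Hspa8* and *Hspa5*. *Hspa1a*, an inducible cytosolic Hsp70, had 4.29, 14.4 and 5.88 RPKM in the libraries numbered 1 of bright AECs, dim AECs and SECs, against 536 and 455 RPKM in bright AECs, 268 and 278 RPKM in dim AECs and 263 and 327 RPKM in SECs numbered 3 and 4. *Hspa1b*, its neighbouring copy on chromosome 17, had 6.70 (bright), 26.5 (dim) and 12.3 RPKM (SEC) in number 1, against 822 and 684 (bright), 396 and 484 (dim) and 594 and 764 RPKM (SEC) in numbers 3 and 4. Both were low in each library numbered 1 and did not overlap with the others. The mean of numbers 3 and 4 was 116, 19.0 and 50.2 times the number 1 value of *Hspa1a* in bright AECs, dim AECs and SECs. Whether the groups differ in this was not tested. The differences were -5.37 ± 0.39 and -5.42 ± 0.43 (SE; limma adjusted p = 0.00126 and 0.00156). Of the 50-base stretches of the *Hspa1a* transcript, 58.8% also stand in *Hspa1b*, so reads may have been split between the copies or lost, and their separate levels are uncertain. *Hspa8*, the constitutive Hsc70, had 176 (bright), 171 (dim) and 228 RPKM (SEC) in number 1, against 556 and 549 (bright), 557 and 344 (dim) and 552 and 372 RPKM (SEC) in numbers 3 and 4. *Hspa5*, the Hsp70 of the endoplasmic reticulum known as BiP, had 198 (bright), 166 (dim) and 195 RPKM (SEC) in number 1, against 492 and 516 (bright), 492 and 339.6 (dim) and 546 and 349 RPKM (SEC) in numbers 3 and 4. Neither overlapped, and both changed less than the inducible pair (-1.33 ± 0.21 and -1.26 ± 0.20, limma adjusted p = 0.00947 and 0.00826). Within the libraries, *Hspa1a* was at 2.44%, 8.44% and 2.58% of the *Hspa8* RPKM in number 1 of bright AECs, dim AECs and SECs, against 47.7% to 96.5% in numbers 3 and 4.

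Of the 6 other chaperones and cochaperones, 5 were lower in number 1 (median -1.69). *Hspb1*, the small heat shock protein Hsp27, had 20.3, 54.7 and 18.9 RPKM in the libraries numbered 1 of bright AECs, dim AECs and SECs, against 546 and 166 RPKM in bright AECs, 198 and 508 RPKM in dim AECs and 103 and 211 RPKM in SECs numbered 3 and 4. *Dnajb1*, an Hsp40 that delivers substrates to Hsp70, had 59.7 (bright), 48.7 (dim) and 49.0 RPKM (SEC) in number 1, against 358 and 349 (bright), 194 and 244 (dim) and 196 and 163 RPKM (SEC) in numbers 3 and 4. *Hsph1*, an Hsp110 that exchanges nucleotide on Hsp70, had 3.94 (bright), 2.93 (dim) and 3.69 RPKM (SEC) in number 1, against 34.5 and 32.8 (bright), 16.5 and 12.5 (dim) and 19.8 and 12.7 RPKM (SEC) in numbers 3 and 4. Each was lowest in number 1 of every group, without overlap (-3.08 ± 0.50, -2.18 ± 0.20 and -2.21 ± 0.23, limma adjusted p = 0.00946, 0.00233 and 0.00378). *Hsp90aa1*, the inducible cytosolic Hsp90, had 46.2 (bright), 46.9 (dim) and 35.4 RPKM (SEC) in number 1, against 157 and 125 (bright), 89.9 and 63.7 (dim) and 90.7 and 90.3 RPKM (SEC) in numbers 3 and 4. *Dnaja1*, another Hsp40, had 17.8 (bright), 16.9 (dim) and 19.4 RPKM (SEC) in number 1, against 44.1 and 48.4 (bright), 36.5 and 33.2 (dim) and 43.9 and 29.2 RPKM (SEC) in numbers 3 and 4. Both were lower without overlap (-1.20 ± 0.21 and -1.06 ± 0.18, limma adjusted p = 0.0113 and 0.0111), but stood at 0.06 and 0.19 after the shift to one pan-endothelial level, where the median of all genes was 1.23. *Hspe1*, the mitochondrial Hsp10, ranged only from 19.5 to 32.3 RPKM and was not called (-0.21, 95% interval -0.64 to 0.22).

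**Figure D4:**
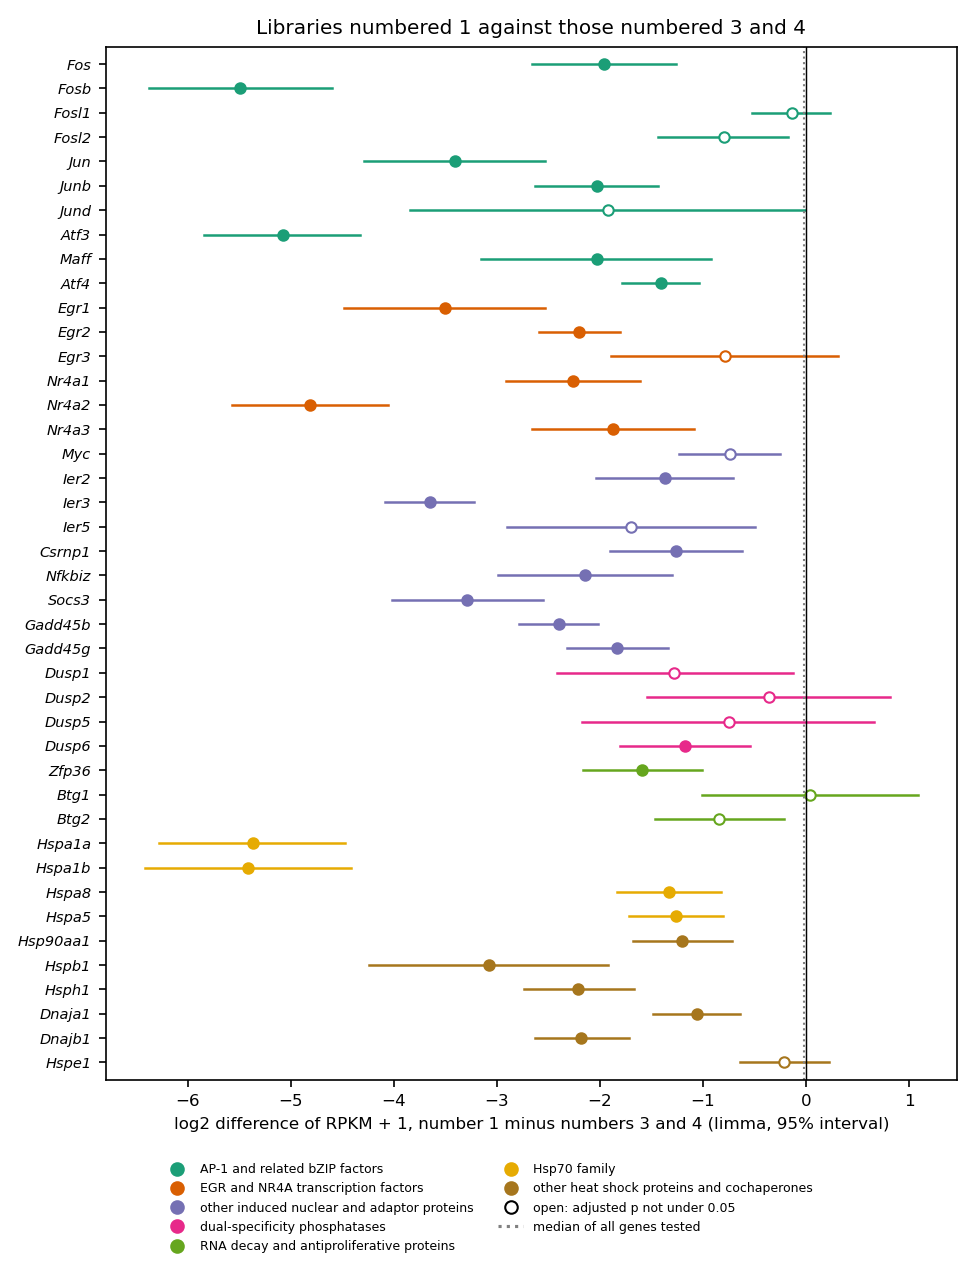
Difference in log2(RPKM + 1) between the libraries numbered 1 and those numbered 3 and 4 for each gene, with its 95% interval from limma, coloured by role; filled points passed an adjusted p of 0.05. All 30 filled points lie below 0, and the dotted line is the median of all genes tested, -0.02.

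The promoters of the heat shock genes are shown because HSF1 binds inverted GAA repeats. GAANNTTC or TTCNNGAA, a pair of such repeats, stood in the 250 bases before the start of 6 of the 8 heat shock genes with a window (75.0%), *Hspa1a*, *Hspa1b*, *Hspb1*, *Hspe1*, *Hsph1* and *Dnaja1*, against 14.5% of all genes with a window and 11.5% of the immediate early genes. The full heat shock element, a run of 3 GAA units in alternating direction that contains such a pair, stood in 1 of 8, *Hspe1* (0.514% of all). The last 150 bases before the start follow for 4 of these genes, with the pairs in capitals; overlapping matches run together in *Hspe1*.
*Hspa1a*, chr17:34972157-34972306, minus strand: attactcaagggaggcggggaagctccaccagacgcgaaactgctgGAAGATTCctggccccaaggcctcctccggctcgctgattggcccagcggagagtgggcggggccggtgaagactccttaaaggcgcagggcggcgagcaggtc
*Hspa1b*, chr17:34959239-34959388, minus strand: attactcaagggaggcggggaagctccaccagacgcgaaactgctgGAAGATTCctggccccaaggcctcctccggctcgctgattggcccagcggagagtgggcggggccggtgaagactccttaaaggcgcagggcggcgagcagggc
*Hspb1*, chr5:135887769-135887918, plus strand: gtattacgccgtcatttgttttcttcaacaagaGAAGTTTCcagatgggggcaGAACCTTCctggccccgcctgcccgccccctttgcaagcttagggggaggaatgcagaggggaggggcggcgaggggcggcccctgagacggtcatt
*Hspe1*, chr1:55087998-55088147, plus strand: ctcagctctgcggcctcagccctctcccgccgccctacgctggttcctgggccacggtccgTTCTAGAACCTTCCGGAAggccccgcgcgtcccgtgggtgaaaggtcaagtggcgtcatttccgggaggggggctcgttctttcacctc
The windows of *Hspa1a* and *Hspa1b* had the same base at 149 of these 150 positions. *Hspe1*, with the longest run of repeats, was the heat shock gene that was not called between the numbers.

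Related genes outside the 42 were read in the same fit, against the same background of 5.10% lower and 10.8% higher. Of 38 other immediate early genes tested, 17 were lower and 3 higher in number 1 (median -1.12). The largest was *Cxcl1*, a neutrophil-attracting chemokine, with 1.10 (bright) and 0.462 RPKM (SEC) in number 1 and no read in dim AEC number 1, against 74.1 to 384 RPKM in numbers 3 and 4. *Cyr61*, a matricellular target of serum response factor, had 12.5 (bright), 16.9 (dim) and 34.9 RPKM (SEC) in number 1, against 349 and 420.2 (bright), 371 and 422 (dim) and 230.2 and 322 RPKM (SEC) in numbers 3 and 4. *Ppp1r15a*, which encodes the stress phosphatase subunit GADD34, had 29.0 (bright), 28.6 (dim) and 13.5 RPKM (SEC) in number 1, against 341 and 465 (bright), 281 and 595 (dim) and 284 and 319 RPKM (SEC) in numbers 3 and 4. These genes did not overlap between the numbers (limma, -6.85, -4.07 and -3.97). Of 24 genes of serum response and MAP kinase signalling, 6 were lower and 2 higher (median -0.26), with *Spry1*, an inhibitor of receptor tyrosine kinase signalling, lower (-2.35) and the kinase *Rps6ka1* and the serum response factor cofactor *Mkl1* higher (2.17 and 2.07). Of 36 other heat shock genes, 7 were lower and 0 higher (median -0.18), with *Bag3*, a cochaperone of Hsp70, at -2.44, *Dnajb4* at -1.94 and *Hspa2* at -1.63. Of 24 genes of the unfolded protein and integrated stress responses, 2 were lower, *Dnajb9* (-1.51) and *Ddit3* (-1.09), and 1 was higher, *Sdf2l1* (1.10), with a median of -0.23. The shares of the signalling list that were higher and of the stress response list in either direction were near or below those of all genes.

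Between the libraries numbered 3 and those numbered 4, limma called 0 genes, and 9.0% of all genes had an unadjusted p under 0.05, among the 42 *Btg2* alone. Voom on recovered reads also called 0 genes. A pattern that crossed the numbers was seen after the values were known: 13 of the 42 genes (31.0%, background 5.86%) were at least 1.5 times higher in bright AEC 3 than in bright AEC 4, in dim AEC 4 than in dim AEC 3, and in SEC 4 than in SEC 3. Because the pattern was picked from values already seen, the excess over the background is a description and not a test. The 13 genes were *Jun*, *Jund*, *Maff*, *Egr1*, *Egr3*, *Ier2*, *Ier5*, *Nfkbiz*, *Dusp1*, *Dusp2*, *Dusp5*, *Btg1* and *Hspb1*. *Jund* and *Ier5* were picked from these after their values were seen. *Jund*, a Jun protein that is mostly constitutive, had 9.68 (bright), 8.93 (dim) and 3.33 RPKM (SEC) in number 1, against 46.7 and 9.07 (bright), 12.0 and 137 (dim) and 11.0 and 59.4 RPKM (SEC) in numbers 3 and 4. It was highest in dim AEC 4 and lower in bright AEC 4 than in bright AEC 1, so the numbers overlapped. *Ier5*, an activator of HSF1, had 14.7 (bright), 12.5 (dim) and 7.90 RPKM (SEC) in number 1, against 56.6 and 22.2 (bright), 22.1 and 106 (dim) and 20.1 and 59.7 RPKM (SEC) in numbers 3 and 4. The bright 3, dim 4 and SEC 4 libraries were again the highest of their groups for *Ier5*.

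Over all 9 libraries, after the group means were removed, the 42 genes had a median pairwise correlation of 0.845 on the log2 scale (861 pairs, 482 above 0.8 and 23 below 0). These points share their libraries and depth, and the number 1 libraries lay lowest for most of the genes, so this is a description. *Jund*, *Ier5* and *Dusp1* resembled each other (r = 0.982 to 0.984), as did *Egr1* and *Nr4a1* (r = 0.997), *Atf3* and *Dnajb1* (r = 0.997) and *Hspa1a* and *Hspa1b* (r = 0.999). *Btg1*, with a median r of 0.0863, and *Dusp2*, with 0.356, were least like the rest.

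Between AECs and SECs 1 of these genes was called. In the mean of both AEC groups minus SECs, 1 of the 42 was higher (2.38%, background 1.94%) and 0 were lower (background 2.99%), and the median difference was 0.50, against 0.03 for all genes. Over all genes 317 were higher and 490 lower, and after the shift to one pan-endothelial level 188 were higher and 93 lower, with 0 of the 42 called. In bright AECs minus SECs 1 was higher (background 1.74%) and 0 lower (background 2.85%), and in dim AECs minus SECs 0 were called (background 0.764% higher and 1.19% lower; *Egr3* alone had an unadjusted p under 0.05, and voom on recovered reads also called 0 of the 42). The dim AECs and SECs of the same number deviated together in numbers 1 and 3 (correlations of 0.778 and 0.647), but hardly in number 4 (0.122). With the number as a block 1 gene passed for dim AECs minus SECs, *Gadd45b* (0.93 ± 0.19, SE, limma adjusted p = 0.0413). That was 2.38% of the 42, where 1.74% of all genes were higher and 2.19% lower. For AECs minus SECs the block gave 6 genes as higher (3.56% of all genes), although same-numbered bright AECs and SECs did not all deviate together. Between bright and dim AECs limma called 0 of all 16364 genes, with *Fosl1* the only one of the 42 at an unadjusted p under 0.05 (4.91% of all genes), and voom also called 0. With the number as a block 3 genes passed between bright and dim AECs, 0 of them among the 42.

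The gene called was *Fosl1*, whose product Fra-1 is an AP-1 subunit known from vessel formation. It had 30.2, 38.5 and 30.2 RPKM in bright AECs and 12.5, 12.6 and 12.2 RPKM in dim AECs, against 10.2, 12.4 and 12.6 RPKM in SECs. Bright AECs were above all other libraries, and dim AECs and SECs overlapped. *Rgs5*, a pericyte marker, was high in the same libraries, at 11.9, 37.7 and 86.9 RPKM in bright AECs and 0.423, 3.08 and 0.571 RPKM in dim AECs, against 0.0968, 0.447 and 0.178 RPKM in SECs (limma, bright minus SEC, 4.84, adjusted p = 0.0062). *Pdgfrb*, another, was also higher (1.91, limma adjusted p = 0.0366). In the lists used here *Pdgfrb* stood with the stromal and osteolineage markers, where it was the 1 gene called of 9 tested. Of the 10 smooth muscle and pericyte markers, 3 were higher and 2 lower in bright AECs than in SECs. They summed to 69.6 to 392 RPKM in bright AECs, 67.2 to 411 RPKM in dim AECs and 428 to 840.3 RPKM in SECs. Most of the SEC sum came from the 2 lower genes, *Kcnj8* and *Abcc9*. *Kcnj8* had 308.2, 659.8 and 421.7 RPKM in SECs, against 4.759, 11.49 and 20.3 RPKM in bright AECs. *Myl9*, like *Rgs5*, was higher in every bright AEC library (25.37, 25.46 and 88.97 RPKM) than in every SEC library (0.4227, 1.149 and 0.5943 RPKM). What part smooth muscle cells or pericytes had in the *Fosl1* level was not tested. The difference was 0.75 ± 0.16 for AECs minus SECs (SE, limma adjusted p = 0.036), 1.41 ± 0.19 for bright AECs minus SECs (limma adjusted p = 0.00504) and 0.08 ± 0.19 for dim AECs minus SECs (limma adjusted p = 0.998). Bright minus dim was 1.33 ± 0.19 with limma adjusted p = 0.265, not called over all genes. The call for AECs together was lost without any one of 8 of the libraries (the exception was bright AEC number 1), while that of bright AECs against SECs was kept in all 21 other settings. In an exact two-sided permutation test bright AECs against SECs reached 0.1, the smallest p that 3 against 3 allows. *Fosl1* overlaps *Ccdc85b* on the opposite strand by 2766 bases, and whether the counting used strand is not given in the sources used here.

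The comparison of AECs with SECs held the spread of the number, so the values were also read within each number. Both AEC libraries were above the SEC library of the same number, for all 3 numbers, in 12 of the 42 genes (28.6%, background 9.95%): *Junb*, *Atf3*, *Atf4*, *Egr1*, *Egr2*, *Egr3*, *Nr4a1*, *Nr4a2*, *Nr4a3*, *Ier2*, *Ier3* and *Gadd45b*. All 6 EGR and NR4A factors were among them, and none of the 10 heat shock genes was. The reverse held for 1 gene, *Gadd45g* (background 11.5%). *Gadd45b* had 52.1, 333 and 249 RPKM in bright AECs and 36.5, 196 and 137 RPKM in dim AECs, against 14.7, 103 and 90.3 RPKM in SECs. The log2 ratio of the AEC mean to the SEC value was 1.59, 1.37 and 1.09 in numbers 1, 3 and 4. *Gadd45g* had 68.2, 205 and 243 RPKM in bright AECs and 40.2, 158 and 235 RPKM in dim AECs, against 102, 327 and 278 RPKM in SECs. Its log2 ratios were -0.91, -0.85 and -0.22. Neither gene separated AECs from SECs across numbers, and neither was called without the number as a block (1.28 ± 0.85 and -0.67 ± 0.66, limma adjusted p = 0.63 and 0.823). With the block *Gadd45b* was called (1.28 ± 0.16, SE, limma adjusted p = 0.00355). *Gadd45g* was not called in any setting (lowest limma adjusted p = 0.109).

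*Egr3*, named here after its values were seen, was the only one of the 42 with every AEC library above every SEC library (background 4.68%), and 0 had every AEC library below every SEC library (background 5.77%). It had 1.70, 7.21 and 1.80 RPKM in bright AECs and 1.31, 2.69 and 9.14 RPKM in dim AECs, against 0.509, 0.428 and 0.914 RPKM in SECs. The levels were low, with 28 to 64 reads in SECs, and the difference was not called (1.38 ± 0.52, limma adjusted p = 0.243). *Atf3* had 15.8, 850.1 and 917 RPKM in bright AECs and 13.4, 361 and 848 RPKM in dim AECs, against 6.21, 144 and 130.5 RPKM in SECs. Its log2 ratio within numbers was 1.23, 2.07 and 2.76. Across numbers its groups overlapped and it was not called without the block (1.93 ± 1.77, limma adjusted p = 0.797). With only the libraries numbered 3 and 4, *Atf3* passed as the only one of the 42 for AECs minus SECs (2.34 ± 0.39, SE, limma adjusted p = 0.0279, 2.36% of all genes higher), and *Fosl1*, *Gadd45b* and *Atf3* passed for bright AECs minus SECs (background 2.52%).

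**Figure D5:**
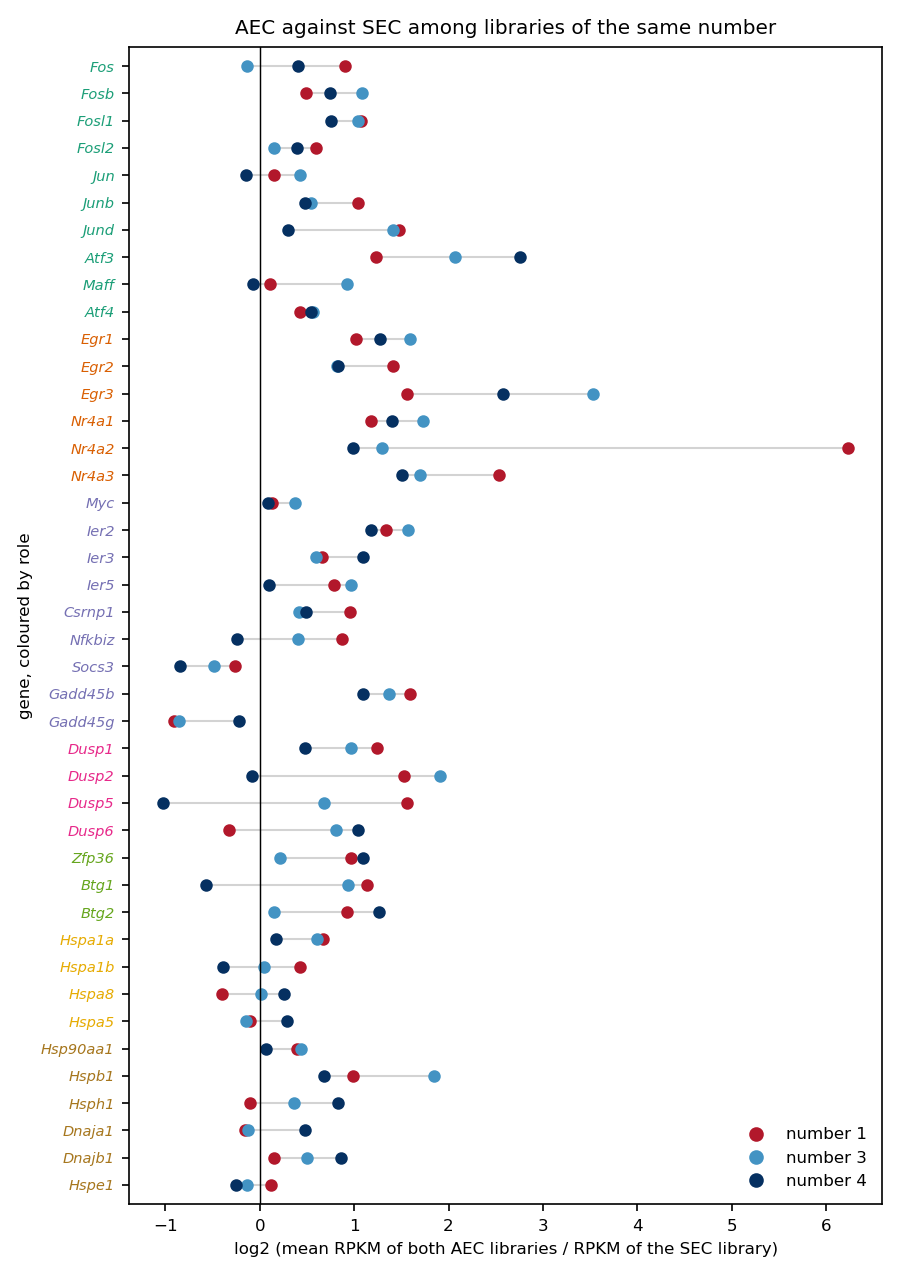
Log2 ratio of the mean RPKM of both AEC libraries to the RPKM of the SEC library of the same number, for each gene and coloured by number. *Gadd45g* and *Socs3* lie below 0 for all 3 numbers, *Egr3* lies at 1.56, 3.53 and 2.58, and the point of *Nr4a2* at 6.23 rests on 3 reads in SEC number 1.

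None of the heat shock genes was called between the cell types. The 10 had a median difference of 0.15 for AECs minus SECs, and the Hsp70 family -0.02. *Hspa1a* within numbers had log2 ratios of AECs to SECs of 0.67, 0.61 and 0.17, and *Hspa8* of -0.40, 0.01 and 0.26. Only *Hspb1* was at least 0.68 in each number (0.99, 1.85 and 0.68), but the bright and dim libraries of number 4 lay on either side of the SEC library. Among related genes, AECs were higher in *Klf6*, an immediate early zinc finger factor (1.16), and in *Mapk3*, which encodes the kinase ERK1 (1.0), and lower in *Ctgf*, a matricellular target of serum response factor (-3.51), and in *Xbp1*, the transcription factor of the unfolded protein response (-1.94), all by limma. Of these lists, 1 of 38 other immediate early genes was higher and 1 lower, 1 of 24 signalling genes was higher, 0 of 36 other heat shock genes were called, and 1 of 24 unfolded protein response genes was lower. With 1.94% of all genes higher and 2.99% lower, these counts were about those of the background.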

How the data were processed

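Per the labels and the study's methods, the authors used STAR for alignment and htseq-count for reads per gene, dropped low genes, scaled libraries by TMM in edgeR 3.12.0 and deposited log2 RPKM values for 17232 genes in 9 libraries (SMART-Seq v4 cDNA of sorted ECs, 3 libraries a group). The processing notes name mm9; 99.98% of the listed positions overlapped the same gene in GRCm38 annotation, so coordinates here are GRCm38. Strand and multi-mapping settings and tool versions other than edgeR's are not given in the sources used here. The deposited log2 values were turned back into RPKM, and whole reads (0.25 prior) came out for 99.9981% of values within 0.0001 reads. PCR reads carried no molecular identifiers, so read numbers bear on counting error only.

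RPKM + 1 was log2-transformed, genes with at least 0.1 RPKM in 3 or more libraries were kept, and limma 3.58.1 (R 4.3.3) with a trend was fitted on group means, or on group plus number for comparisons of numbers. The model was tested on simulated data. Exact two-sided permutation tests used 27 choices of 1 library a group, or 84 and 20 splits for 6 against 3 and 3 against 3 libraries. The pairing check used correlations of deviations from group means: same-numbered bright and dim AECs gave 0.784, 0.424 and 0.155, dim AECs and SECs 0.778, 0.647 and 0.122, and bright AECs and SECs 0.708, 0.593 and -0.212 for numbers 1, 3 and 4. Unlike-numbered pairs reached 0.498 (bright AEC 3 with dim AEC 4), 0.4 (bright AEC 4 with dim AEC 3) and 0.285 (dim AEC 4 with SEC 3). Outside number 1 some of these exceeded same-numbered values, so the check did not settle a pairing by number. The block is therefore given as an alternative.

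The members and all gene lists were chosen with earlier results of these data known. Values in every library are given for members called in any comparison, the 2 with the highest mean RPKM of each role, and the 5 with the widest range; of each related list up to 3 called genes are named. Alternatives were other pseudocounts, filters and scalings, library weights, voom on recovered reads, a replicate block, subsets of libraries and each library left out.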

Additional observations from a re-analysis of the deposited data

How the results depend on the processing

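The comparison of number 1 with numbers 3 and 4 called 30 genes, and leaving out 1 library gave 18 (without dim AEC number 1) to 35 (without bright AEC number 4). The shift to one pan-endothelial level, added after the data were seen, gave 19 called genes, 16 lower and 3 higher. That shift moved the median of all genes from -0.02 to 1.23, so that genes with small negative differences turned positive with it, among them 11 of the 42: *Fosl1* (1.11), *Fosl2* (0.46), *Egr3* (0.47), *Myc* (0.52), *Dusp2* (0.9), *Dusp5* (0.5), *Dusp6* (0.09), *Btg2* (0.42), *Hsp90aa1* (0.06), *Dnaja1* (0.19) and *Hspe1* (1.05). *Btg1* stood at -0.08 after the shift to one median and ranged from -0.35 to 0.39 with a library left out, and *Dusp2* from -0.77 to 0 (without bright AEC number 3). For AECs minus SECs the count of 1 became 0 with quantile normalization, with one median, with voom, with the pan-endothelial shift, and 0 to 1 with a library left out. Bright AECs minus SECs gave 3 with only the libraries numbered 3 and 4. *Fosl1* in dim AECs minus SECs was at -0.02 with only those libraries and ranged from -0.01 (without SEC number 1) to 0.13 with a library left out, and *Socs3* in AECs minus SECs from -1.77 to 0.1 (without SEC number 4). The cause of these changes was not tested.

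With the number as a block, 6 of the 42 genes were higher in AECs than in SECs (*Egr2*, *Ier2*, *Fosl1*, *Nr4a1*, *Gadd45b* and *Atf3*, background 3.56%), 7 in bright AECs than in SECs (background 3.80%) and 1 in dim AECs than in SECs (background 1.74%). Same-numbered libraries did not all deviate together, so these counts rest on a shared number alone. Between bright and dim AECs the block gave 0 of the 42, as without it. Searched on the gene's strand only, TGACG stood in 13 of 35 immediate early windows instead of 21, and in 1 of 12 heat shock windows instead of 4. Depth limits *Nr4a2* in SEC number 1, with 3 reads, and *Egr3*, with 26 reads in dim AEC number 1.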
